A study of Populus x canadensis with 4 samples.

Results

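The microRNA families described here are miR6421 to miR6477, miR6479 and miR7812 to miR7842 of Populus trichocarpa, the late-numbered families of this tree genus. They were chosen by the number in the deposited name, whatever the arm or variant. The rule found 84 of the 738 rows of the leaf table. Rows with the same sequence were summed, which left 75 of 529 distinct sequences in 44 families. All of them carry the ptc prefix of Populus trichocarpa, although the leaves came from the hybrid poplar Populus × euramericana 'Neva'.

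Cuttings of this hybrid had grown for 90 days in water culture and were then kept for 3 days in solutions of para-hydroxybenzoic acid at 0, 2, 4 or 8 mM. This phenolic compound is known to build up in soil and to restrain plant growth. All groups share the same cultivar and culture, and the untreated group differs only in the absence of the acid, as far as the labels say. RNA of plants of the same treatment was mixed in equal parts, so each dose was 1 library. No difference below has a replicate check, no p-value was computed, and intervals cover counting error only. PCR reads without molecular identifiers are not independent molecules. The table holds microRNAs only, so the leaf label could not be checked against leaf markers. In such whole-leaf RNA, fewer cells of a type and less RNA per cell cannot be told apart.

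A plant microRNA is cut from the stem of a hairpin RNA by a Dicer-like enzyme as a duplex of both arms. The guide strand is loaded into an Argonaute protein and directs the cutting or silencing of messenger RNAs with a matching site, while the opposite strand is usually degraded. Families known from a single genus are often weakly expressed and cut less exactly than the widely conserved ones. Of the families below, miR6445 is known in poplar for targeting NAC transcription factor genes. For the others no role is stated here, since none is annotated in the table.

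Most reads of the late-numbered families came from the following sequences, shown because the totals follow them. They are written 5′ to 3′ as DNA letters, as deposited, with the seed (bases 2 to 8) in capitals.
ptc-MIR6421-p3: tTGTAAGGgaagcccacatgg
ptc-MIR6424-p3: tGGTGCCAcgctgtgtgcgtc
ptc-miR6445a: tTCATTCCtcttcctaaaatgg
ptc-miR6457b: tTAGTTTGgcagcctcttctc
ptc-miR6427-5p: tCGTAATGcttcattctcacaa
ptc-miR6427-3p: gTGGGAATgaacattatgaga
ptc-MIR6462a-p3_1ss17GA: tTTTTGTCcctcgctaatctc
ptc-miR6421-5p: tCCCTTACaatctactctttc
In these names miR marks a microRNA listed as mature and MIR with p3 or p5 is read as an arm of the hairpin that is not listed as mature. A suffix such as 1ss17GA is read as a substituted form, and L or R with a number as a shortened or extended end. No 2 of the 75 sequences shared a seed. With sequences of other families 5 seeds were shared, and the most abundant member among them was ptc-miR6427-3p, whose seed also occurs in vvi-miR3630-3p_L-1_2ss2TA22CT (aTGGGAATctctctgatgcat).

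The late-numbered sequences made up a small part of the leaf microRNAs. Levels are the authors' normalized read counts, which are raw counts times 1 factor per library and are not divided by length. Summed over all 75 sequences the level was 29566, 31856, 30483 and 29356 in the order 0, 2, 4 and 8 mM, the order of all value series below. The sum was thus 1.08-fold the untreated level with 2 mM (95% interval 1.06 to 1.096) and 1.03-fold with 4 mM (1.01 to 1.05). With 8 mM the ratio was 0.993, and its interval holds 1 (0.976 to 1.01). As a share of all reads in the table it was largest in the untreated library, at 0.826% (Wilson interval 0.815 to 0.837). The acid-treated libraries had 0.646% (0.639 to 0.653), 0.575% (0.569 to 0.581) and 0.620% (0.614 to 0.627). Scaling the libraries to equal table totals gave log2 ratios of the sum of -0.35, -0.52 and -0.41, which reverses the direction seen with 2 and 4 mM. That scaling moved the median of all sequences by -0.43, -0.54 and -0.40. Direction statements below use the authors' scaling, and a direction that turns under equal totals is named where it is given. The libraries held 2640653 to 6369127 reads in the table.

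Beneath this nearly level sum, the most abundant members took different courses. ptc-MIR6421-p3 stood at 8752, 6454, 6373 and 6933 normalized read counts, and ptc-MIR6424-p3 at 5543, 8227, 5495 and 5861. ptc-miR6445a had 3529, 5809.8, 7572 and 5611, and ptc-miR6457b had 3557, 2914, 1728 and 1623. The untreated library was thus the highest of the 4 for ptc-MIR6421-p3 and ptc-miR6457b and the lowest for ptc-miR6445a, while ptc-MIR6424-p3 was highest with 2 mM. The leading sequence was ptc-MIR6421-p3 in the untreated library, ptc-MIR6424-p3 with 2 mM, ptc-miR6445a with 4 mM and ptc-MIR6421-p3 again with 8 mM. Together these 4 sequences held 72.3%, 73.5%, 69.4% and 68.2% of the late-numbered reads, and the 8 most abundant held 87.6%, 89.8%, 87.7% and 86.7%.

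**Figure D1:**
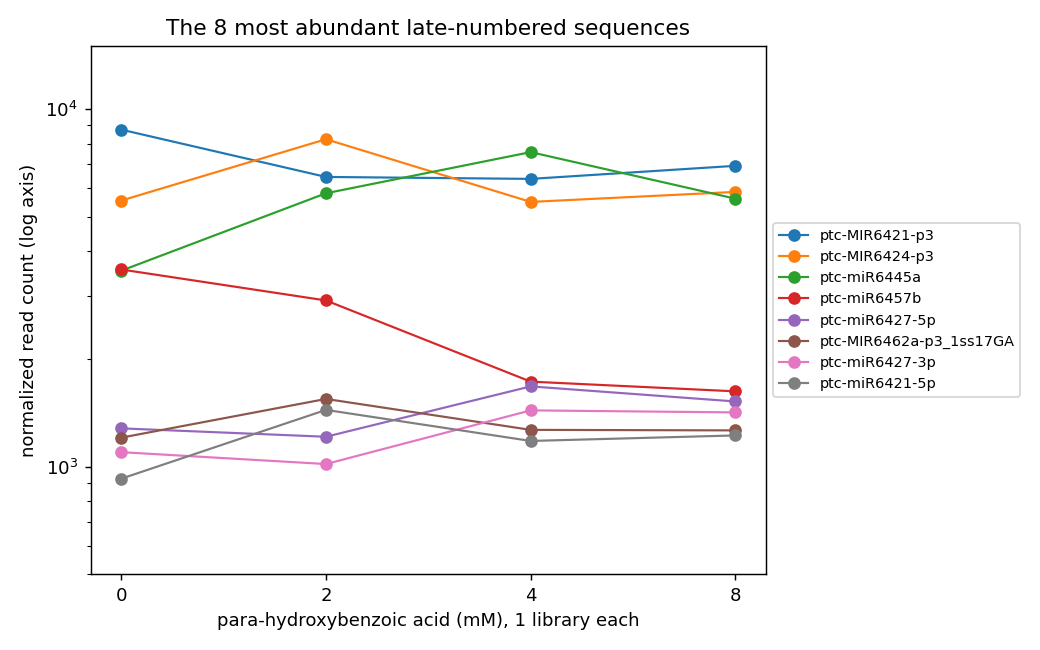
Normalized read counts (log axis) of the 8 most abundant late-numbered sequences against the dose in mM, 1 point per library with no replicates. With 4 mM ptc-miR6445a is at 7572 and ptc-miR6457b at 1728, from 3529 and 3557 in the untreated library.

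In miR6445, the family known for NAC targets, the members went opposite ways. ptc-miR6445a was above the untreated library by 1.65-fold (1.57 to 1.72), 2.15-fold (2.05 to 2.24) and 1.59-fold (1.52 to 1.66) with 2, 4 and 8 mM. With equal table totals it remained higher at all doses but below 2-fold, with log2 ratios of 0.26, 0.53 and 0.27. The second sequence of the family, ptc-MIR6445b-p3, stood at 652, 352, 386 and 402 normalized read counts. It was 1.85-fold (1.61 to 2.13), 1.69-fold (1.49 to 1.93) and 1.62-fold (1.42 to 1.85) lower. It is named for the 3′ arm of another locus, and the pair is shown because most of each is the reverse complement of the other.
ptc-miR6445a: tTCATTCCtcttcctaaaatgg
ptc-MIR6445b-p3: aTTTTAGGaagggaatgaata
The longest unbroken complementary stretch between them is 11 bases. Past an unpaired base of ptc-miR6445a the complementary letters go on. Whether the pair are strands of the same duplex was not tested. Their ratio within a library, in which library scaling cancels, was 5.41 without the acid (4.91 to 5.97) and 16.5 (14.8 to 18.4), 19.6 (17.9 to 21.6) and 13.96 (12.7 to 15.4) with it. The interval of the untreated library lay apart from those of all 3 doses.

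In miR6457 the abundant member was lower with every dose. ptc-miR6457b was 1.22-fold (1.16 to 1.29), 2.06-fold (1.94 to 2.18) and 2.19-fold (2.06 to 2.33) lower, and lower still with equal table totals. ptc-miR6445a and ptc-miR6457b were level in the untreated library, with a ratio of 0.992 (0.94 to 1.05), and of 1.99 (1.91 to 2.08), 4.38 (4.18 to 4.5996) and 3.46 (3.28 to 3.64) in the treated ones. The hairpin miR6457a had another course. Its sequence ptc-MIR6457a-p3 (gGTTTGCTgcactctgctggg) stood at 192, 255, 255 and 165 normalized read counts, and ptc-MIR6457a-p5_1ss7AG (aGAAATGAgagaagagtcgag) at 102, 149, 113 and 99.8. The former was 1.33-fold higher with 2 mM (1.07 to 1.63) and 1.33-fold with 4 mM (1.08 to 1.63), and both directions turned with equal table totals, to log2 ratios of -0.05 and -0.15. Within a library the ratio of ptc-miR6457b to ptc-MIR6457a-p3 went from 18.5 (15.6 to 22.02) to 11.4 (10.1 to 13.1), 6.77 (6.01 to 7.67) and 9.84 (8.46 to 11.5). The untreated interval lay above the other three. Raw values of both sequences hold fractions, such as 2622.5 and 141.5 reads at 0 mM. The rule that made the fractions is not given, so their ratio rests on estimated counts. Whether reads were split between them was not tested.

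The ratio of sequences named for the arms of 1 hairpin is free of library scaling. Hairpin positions could not be looked up, so whether such sequences are strands of the same duplex was not tested. The longest unbroken complementary stretch of the miR6421 sequences is 10 bases, at the 5′ end of each, so they overlap only in part. For miR6421 the 3′ arm, although not listed as mature, was the major one. Its share of the reads of both arms was 90.4% in the untreated library (89.7 to 91.1), then 81.8% (80.9 to 82.6), 84.4% (83.6 to 85.1) and 85.01% (84.3 to 85.7). The untreated library was apart from all doses, and 2 mM was apart from 4 and 8 mM, whose intervals overlap. The listed ptc-miR6421-5p accounted for the opposite side, with 925, 1440.4, 1179 and 1222 normalized read counts. It was 1.56-fold (1.42 to 1.71), 1.27-fold (1.16 to 1.40) and 1.32-fold (1.204 to 1.45) higher, directions that equal table totals kept with 2 mM only (log2 ratios of 0.18, -0.22 and -0.0006). ptc-MIR6421-p3 was 1.36-fold (1.31 to 1.40), 1.37-fold (1.33 to 1.42) and 1.26-fold (1.22 to 1.30) lower.

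miR6424 was also read mainly from the arm that is not listed. ptc-MIR6424-p3 was 1.48-fold higher with 2 mM (1.43 to 1.54), whereas with 4 mM its ratio of 0.991 had an interval that holds 1 (0.953 to 1.03). With 8 mM it was 1.06-fold higher (1.02 to 1.0998). Equal table totals gave log2 ratios of 0.11, -0.58 and -0.32, which leaves little of the excess at 2 mM and reverses the direction at 8 mM. The listed ptc-miR6424 (cGCTCGCCagcgttgcaccacc) was taken as the 5′ arm because its partner is the 3′ arm. It stood at 155.97, 69.01, 152 and 127 normalized read counts, so it was lowest at 2 mM, where its partner was highest. It was 2.26-fold lower there (1.67 to 3.09). The ratio of the 3′ to the opposite arm was 35.5 (29.5 to 43.2), 119 (94.3 to 153), 36.1 (31.1 to 41.99) and 46.3 (39.2 to 55.1). The interval of the 2 mM library lay above the other three, which overlap.

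In miR6427 both arms are listed as mature and had like courses. ptc-miR6427-5p stood at 1279, 1212, 1676 and 1521 normalized read counts and ptc-miR6427-3p at 1097, 1016, 1436 and 1417. The 3′ share was 46.2% (43.9 to 48.5), 45.6% (43.6 to 47.7), 46.1% (44.6 to 47.7) and 48.2% (46.5 to 49.9), and all intervals overlap. The family total was 1.31-fold higher with 4 mM (1.24 to 1.39) and 1.24-fold with 8 mM (1.17 to 1.31), while equal table totals gave log2 ratios of -0.18 and -0.10.

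Among the less abundant hairpins, miR6459a had a 3′ share of 89.8% in the untreated library (87.02 to 92.05) and 95.3% with 8 mM (93.6 to 96.6), intervals that lie apart. ptc-miR6459a-5p (aGCTCAAGcacaaattcgatc) stood at 77.3, 51.3, 49.1 and 32.1 normalized read counts, 2.41-fold lower with 8 mM (1.56 to 3.76). Its partner ptc-miR6459a-3p_R-1 (tCGAATTTgggcttgagatt) stood at 681, 591, 528 and 649.8. In miR7813 the 3′ share was 89.4%, 89.9%, 90.5% and 91.99%, in miR6457a 65.4%, 63.1%, 69.3% and 62.3%, and in miR7817a 24.5%, 22.7%, 16.7% and 13.8%, and within each of these the 4 intervals overlap.

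**Figure D2:**
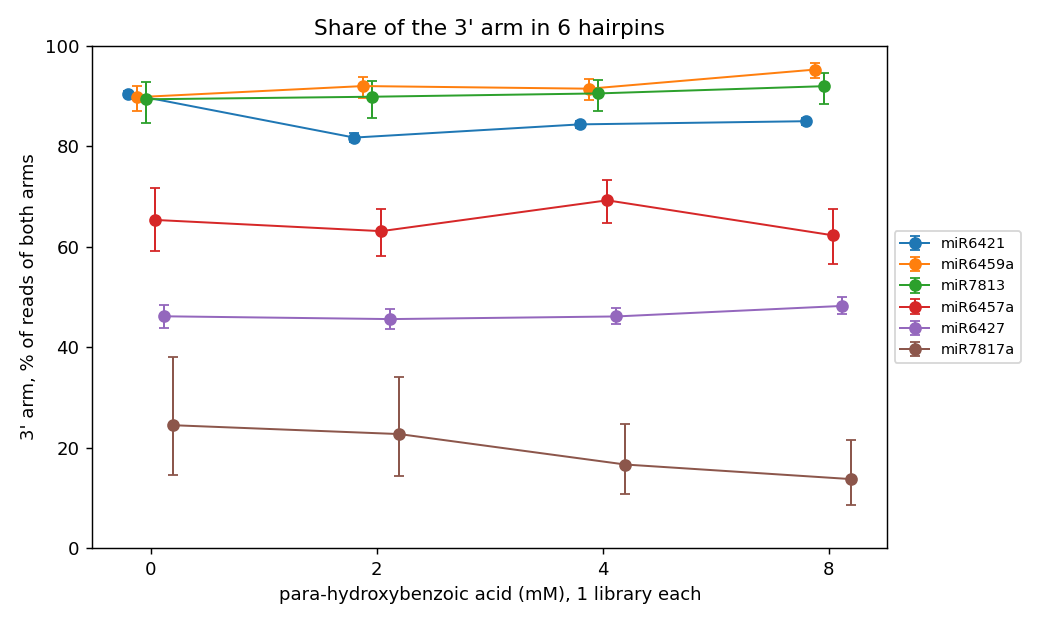
Share of the 3′ arm in the reads of both arms (percent) for 6 hairpins against the dose in mM, 1 library per dose, with Wilson 95% intervals as bars. miR6421 drops from 90.4% to 81.8% at 2 mM while miR6427 stays between 45.6% and 48.2%.

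Other named members followed neither course. ptc-MIR6439a-p3 (tCTGCTTCttgatttggtgcc) was higher at each further dose, with 389, 562, 606 and 842 normalized read counts. It was 1.44-fold (1.25 to 1.67), 1.56-fold (1.36 to 1.79) and 2.16-fold (1.89 to 2.48) higher than in the untreated library, or 0.53, 0.64 and 1.11 on the log2 scale. With equal table totals these log2 ratios were 0.07, 0.07 and 0.71, so little of the excess at 2 and 4 mM was left. ptc-MIR6438b-p5_1ss11AG (tCGACTGAaagtgaaagctat) stood at 349.9, 171.5, 296 and 344 normalized read counts and was lowest with 2 mM, 2.04-fold below the untreated library (1.68 to 2.49). With 4 mM it was 1.18-fold lower (1.001 to 1.39), a log2 ratio of -0.24 that was -0.80 with equal table totals. ptc-MIR6462a-p3_1ss17GA stood at 1205, 1546, 1267 and 1262, 1.28-fold higher with 2 mM (1.18 to 1.40), where equal table totals gave a log2 ratio of -0.10. A related sequence of the miR6462 family, ptc-MIR6462c-p3 (tATGCATTtttgtccctcgcc), shares a run of 14 bases with it and was lower with 2 mM, at 65.8, 17.01, 49.3 and 47.9 normalized read counts, 3.87-fold lower (2.24 to 7.34). Raw values of 7 members, among them these miR6462 sequences, ptc-miR6457b and ptc-MIR6457a-p3, were fractions even after summing (tolerance 0.002). The rule that made the fractions is not given in the sources used here.

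Further families of moderate level are given for their arms. The listed ptc-miR7817a stood at 50.2, 50.3, 74.96 and 83.8 normalized read counts, and ptc-MIR7841-p5_1ss18CT at 55.6, 41.4, 31.6 and 53.5. In miR6446 both arms were lowest with 8 mM, where ptc-MIR6446-p5_2ss22AG23CT had 30.3 after 33.9, 50.3 and 64.96, and ptc-MIR6446-p3 had 8.91 after 20.3, 41.4 and 29.98. The 3′ share in miR6446 was 37.5% (24.2 to 52.97), 45.2% (35.4 to 55.3), 31.6% (23.8 to 40.6) and 22.7% (12.8 to 36.99), and the 4 intervals overlap.

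Of the 75 sequences, 37 averaged 10 or more normalized read counts across the 4 libraries and 38 did not. A member that passed only through the library where it is high had to differ, so the counts below describe these 37 and support nothing. At least 2-fold higher, on log2(value + 1), were 3, 6 and 5 of the 37 with 2, 4 and 8 mM. Over all 350 sequences above the same level the shares were 20.9%, 18.9% and 14.9%. Those at least 2-fold lower numbered 5, 2 and 3, against 23.7%, 25.7% and 21.4% of all sequences. Of the late-numbered sequences this is 8.11%, 16.2% and 13.5% higher and 13.5%, 5.41% and 8.11% lower. With equal table totals 2, 2 and 2 were higher and 8, 7 and 4 lower. Over all 350 sequences that scaling gave 45, 38 and 37 higher and 110, 123 and 107 lower. Under the authors' scaling the median log2 ratio of the 37 was -0.11 at 2 mM, 0.13 at 4 mM and -0.02 at 8 mM. Over all 350 sequences it was 0.04, 0.03 and -0.02.

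The spread of the late-numbered ratios was narrower than that of the rest of the table at each dose. The middle 50% of log2 ratios at 4 mM lay between -0.25 and 0.67 for the 37 sequences and between -1.19 and 0.76 for the 313 others. The early-numbered Populus families were also narrow, with a middle 50% of -0.30 to 0.85, -0.37 to 0.90 and -0.33 to 0.73 at 2, 4 and 8 mM, beside -0.42 to 0.55, -0.25 to 0.67 and -0.29 to 0.44 for the late-numbered ones. These early-numbered families are miR472 to miR482 and miR1444 to miR1450, and their 53 sequences at this level had a median of 0.39 at 4 mM with 12 higher and 7 lower, and the 169 of widely conserved families a median of -0.06 with 31 higher and 53 lower. Among sequences seen in all 4 libraries, the highest level was a median of 2.04 times the lowest for 36 late-numbered sequences and 2.68 times for 293 others. These differences between lists were not tested. Counting intervals lay wholly above 1 for 11, 14 and 10 of the 37 at 2, 4 and 8 mM and wholly below 1 for 10, 9 and 4. Over all sequences the shares above 1 were 38.9%, 36.6% and 32.9% and those below 1 were 36.6%, 36.3% and 36.9%.

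**Figure D3:**
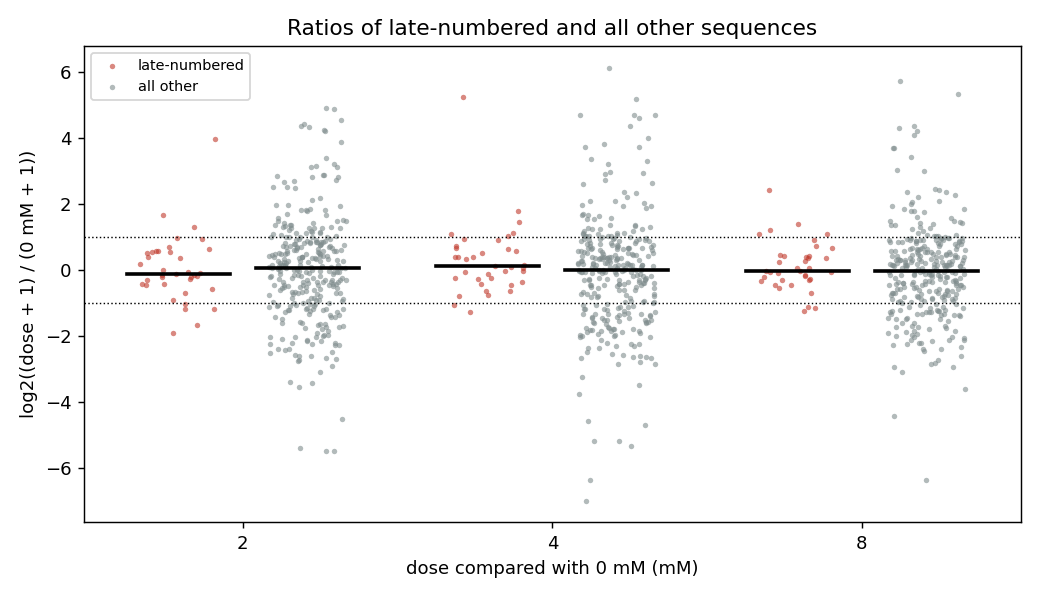
Log2 ratio to 0 mM, log2((dose + 1) / (0 mM + 1)), of the 37 late-numbered and the 313 other sequences averaging 10 or more normalized read counts, 1 point per sequence, for 2, 4 and 8 mM. Black bars are medians, which lie between -0.11 and 0.13 for the late-numbered group, and dotted lines mark 2-fold.

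Several of the members past 2-fold were scarce. ptc-MIR7816-p3_2ss20CG21TC (tGTTATTAacactgtaattgc) was past 2-fold at every dose, with 6 reads at 0 mM and 22, 29 and 23 reads at the doses. Its normalized read counts were 8.14, 21.7, 24.2 and 20.5, which made it 2.67-fold (1.05 to 8.04), 2.97-fold (1.21 to 8.74) and 2.52-fold (0.997 to 7.56) higher, so the interval at 8 mM holds 1. Equal table totals brought it below 2-fold at all 3 doses, with log2 ratios of 0.89, 0.94 and 0.87. ptc-MIR7838-p5_2ss11AG20GA (aATTCCTCctgcccaacacatggc), a sequence listed for both arms of its hairpin, had 10.9, 36.5, 39.98 and 15.2 normalized read counts. It was 3.36-fold higher at 2 mM (1.54 to 8.36) and 3.68-fold higher at 4 mM (1.73 to 9.02). ptc-MIR6448-p5_1ss15CT (tGCCTTGTtactgctgtgcct) had 20.3, 17.7, 42.5 and 55.3, and was 2.09-fold higher at 4 mM (1.16 to 4.00) and 2.72-fold higher at 8 mM (1.53 to 5.14). With equal table totals its log2 ratio was 0.48 at 4 mM, below 2-fold, and 1.01 at 8 mM. ptc-MIR7827-p5_2ss5AT18TC was 2.20-fold higher at 4 mM (1.55 to 3.19), from 55.6 to 122 normalized read counts, and stood at 63.1 and 105 at 2 and 8 mM. Its log2 ratio at 4 mM was 0.57 with equal table totals, which is below 2-fold. ptc-miR6471 (tTTGGGATcatcaggacagcc) reached 2.30-fold at 8 mM on 6 and 21 reads, with an interval that holds 1 (0.898 to 6.97) and a log2 ratio of 0.75 under equal table totals.

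Among those at least 2-fold lower, ptc-MIR6462f-p5 (gACAAAAAtggcataagagagg) had 13, 5, 8 and 16 reads. It was 3.58-fold lower at 2 mM (1.197 to 12.8) and 2.65-fold lower at 4 mM (1.02 to 7.37). ptc-MIR6463-p5 was 2.41-fold lower at 2 mM on 14 and 8 reads, and ptc-MIR6446-p3 was 2.28-fold lower at 8 mM on 15 and 10 reads, with intervals that hold 1 (0.943 to 6.62 and 0.959 to 5.68).

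**Figure D4:**
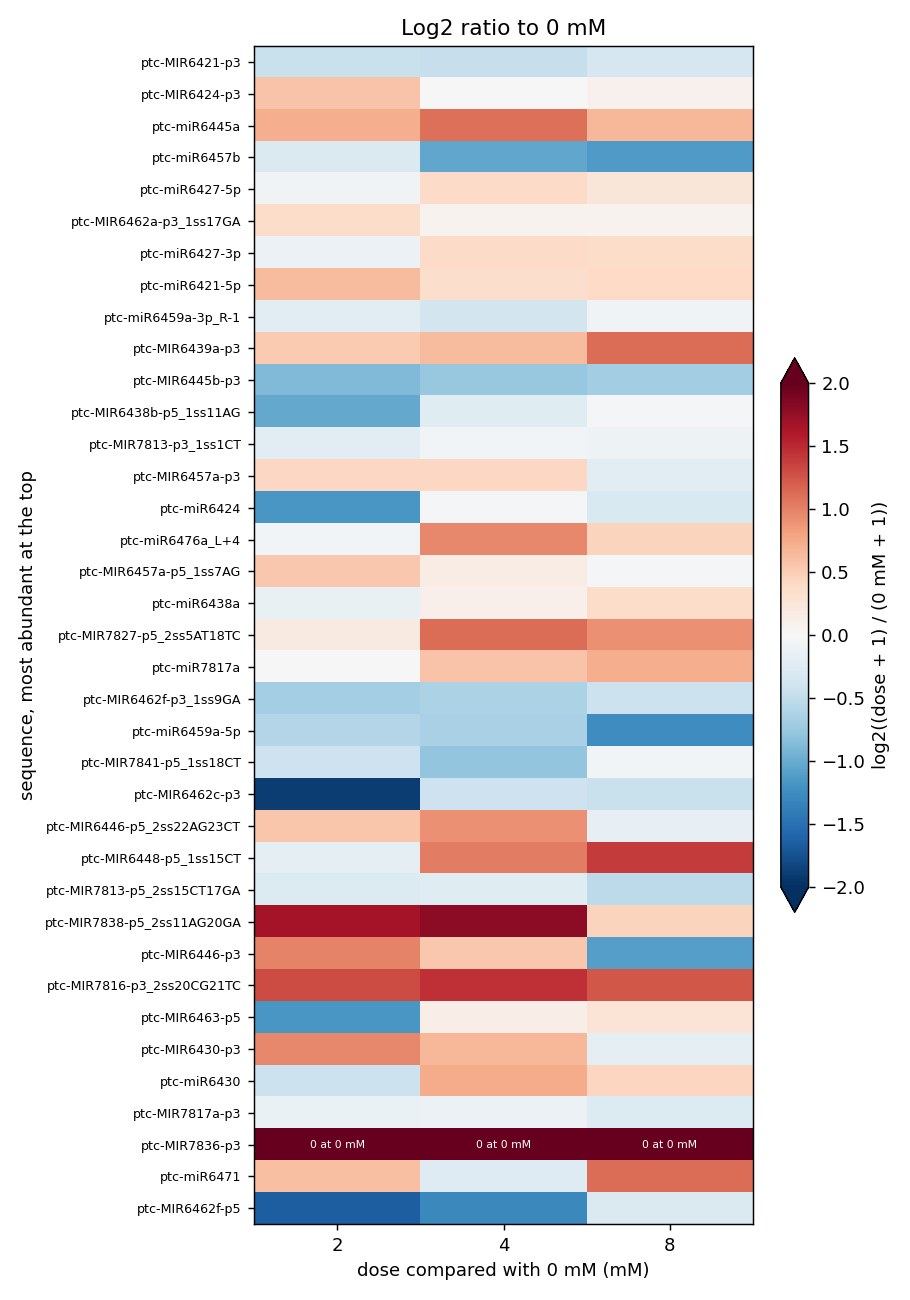
Log2 ratio to 0 mM of the 37 late-numbered sequences averaging 10 or more normalized read counts, most abundant at the top, for 2, 4 and 8 mM (red higher, blue lower, colours end at 2 in both directions). ptc-miR6445a and ptc-MIR6445b-p3 have opposite colours at all doses, and ptc-MIR7836-p3 is marked because it is listed at 0 at 0 mM, where a ratio depends on the pseudocount.

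The length of the sequences differed from the rest of the table in the share of 21 nt, the usual length of a plant microRNA. Of the 75 sequences 53 were of 21 nt (70.7%), 7 of 22 nt, 11 of 24 nt, 3 of 20 nt and 1 of 25 nt, whereas 197 of the 454 other sequences were of 21 nt (43.4%). None of the 75 was of 18, 19 or 23 nt, where the rest had 22, 29 and 34. By reads, sequences of 21 nt held 79.9%, 74.8%, 65.8% and 71.9% of the late-numbered group, against 31.5%, 27.0%, 21.6% and 28.7% of the other reads. A high 21 nt share of the reads was not particular to the late-numbered group. In the widely conserved families it was higher, at 92.4%, 90.8%, 89.7% and 91.9%. In the early-numbered Populus families 92.8%, 93.9%, 95.3% and 93.8% of the reads were of 22 nt. Counted by sequences, 129 of 237 in the widely conserved families (54.4%) and 29 of 69 in the early-numbered ones (42.0%) were of 21 nt. Both shares lie below the 70.7% of the late-numbered group. A 5′ T, which as U favours loading into the main Argonaute of plants, began 41 of the 75 sequences and 91.4%, 93.1%, 90.7% and 91.3% of their reads, beside 208 of 454 sequences and 94.8%, 97.2%, 97.4% and 97.2% of the reads in the rest.

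**Figure D5:**
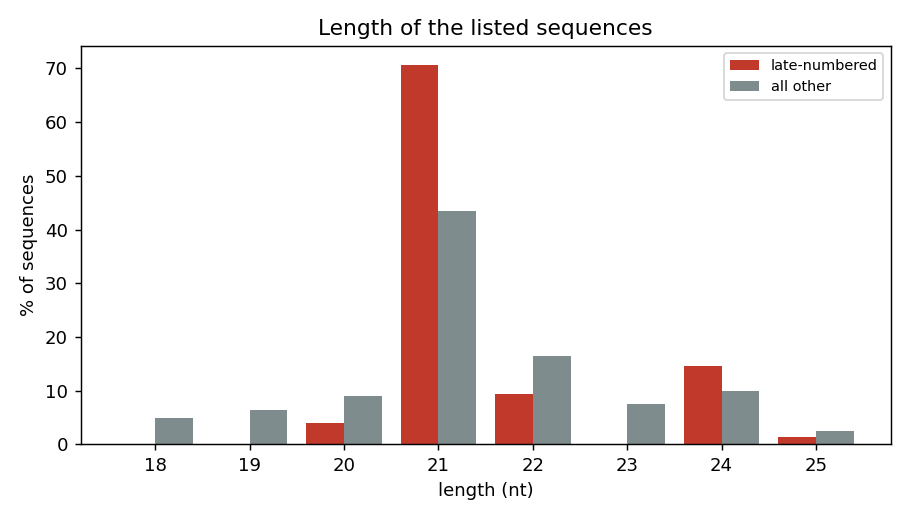
Percent of listed sequences at each length in nt for the 75 late-numbered (red) and the 454 other sequences (grey). The bar at 21 nt is 70.7% for the late-numbered group and 43.4% for the rest.

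The 22 nt share of the late-numbered reads was 17.2%, 22.5%, 31.2% and 25.2%, and ptc-miR6445a held most of it. Summed 22 nt sequences stood at 5071, 7181, 9503 and 7393 normalized read counts, and without ptc-miR6445a at 1542, 1371, 1931 and 1782. The 24 nt class, which in plants is the usual size of small interfering RNAs that guide DNA methylation, was small. It summed to 172.2, 244 (from 248 reads), 389 and 193 normalized read counts, so it was highest at 4 mM, 2.26-fold above the untreated library (1.85 to 2.77). Without its most abundant member, ptc-miR6476a_L+4 (cGGATCAGtggagatgaaacatga, at 93.6, 89.7, 182 and 127), the sum was 78.7, 155, 207 and 65.96. The other 24 nt sequences of the table were also highest at 4 mM, at 5605, 4900.1, 9306 and 4979. Equal table totals, which lower every ratio, were not applied to these 22 nt and 24 nt sums. At 4 mM that scaling moved the median log2 ratio of all sequences by -0.54. Of the 24 nt sequences with a mean of at least 10, the highest library was 4 mM for 4 of 5 late-numbered and 14 of 21 others. Among these 4, ptc-MIR7836-p3 (0, 14.8, 37.5 and 4.46) reached that mean mainly through its 4 mM library. A sequence that passes through its highest library had to peak there, so these counts describe the list and support nothing.

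Names listed as mature covered 22 of the 75 sequences, and the other 53 were hairpin arms that are not listed. Those arms held 60.8% (60.1 to 61.4), 58.1% (57.6 to 58.6), 51.6% (51.1 to 52.1) and 57.1% (56.5 to 57.6) of the late-numbered reads, largely through ptc-MIR6421-p3 and ptc-MIR6424-p3. A substituted form was named for 23 of the 75. The median sequence of the group was scarce, with a mean of 8.48 normalized read counts, against 32.99 for the rest of the table. By family, 21 of the 44 had 1 sequence, and miR6462 had the most, with 7.

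Detection was patchy among the scarce members. In all 4 libraries 39 of the 75 sequences were listed above 0, while 8 were above 0 in 3 libraries, 11 in 2 and 17 in 1. Members seen in 1 library had at most 9.5 reads. Above 0 were 50, 53, 57 and 59 of the 75 sequences, and 409, 438, 445 and 441 of the 529 in the whole table. The untreated library was the shallowest. For ratios to a listed 0, 3 reads were put in its place, which correspond to 4.07, 2.96, 2.499 and 2.67 normalized read counts. If the authors applied a minimum count, a listed 0 could hide more reads than that. Members seen only in the untreated library were ptc-miR6463, ptc-MIR6457b-p5, ptc-MIR6462a-p5, ptc-miR6468-5p and ptc-MIR6469-p3, with 5 or 6 reads each.

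ptc-MIR7836-p3 (aACCACACctcccacccaaacacc), of 24 nt and listed with the same letters for miR7837, was the most abundant of the members listed at 0 in the untreated library. It had 0, 15, 45 and 5 reads, or 0, 14.8, 37.5 and 4.46 normalized read counts. With 3 counts put in place of the 0, it was 3.63-fold, 9.21-fold and 1.095-fold higher. These ratios take the reads at each dose as exact and would be smaller if the listed 0 hid more than 3 reads. The counting intervals, which take the 0 as counted, start lower, at 2.61, 7.19 and 0.602, and the one at 8 mM holds 1. ptc-MIR6470-p3_1ss21AG (tGAGATGGttttttgacatgg) had 0, 18, 13 and 6 reads, 4.36-fold, 2.66-fold and 1.31-fold higher in the same sense. Its counting intervals start at 3.20, 1.87 and 0.774, and the one at 8 mM holds 1. ptc-miR6447 (tTGACGAAatgtgacgactac) was listed at 0 at 0 and 2 mM and had 16 and 18 reads at 4 and 8 mM, that is 13.3 and 16.04 normalized read counts. The smallest count above 0 among the late-numbered sequences was 3, for ptc-miR6462c-5p_L-3R+2 at 8 mM. Every other count above 0 was at least 5. Whether a minimum was applied by the authors is not given in the sources used here, so the patchy detection may partly reflect one.

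Some members were complementary to each other over long runs, as arms of 1 stem can be. The longest runs are shown with their partners.
ptc-miR6459a-3p_R-1: tCGAATTTgggcttgagatt
ptc-miR6459b: tCTCAAGCccaaattcgatc
ptc-MIR7828-p5_1ss18TA: tGACATGGacaccaaaaactt
ptc-MIR7828-p3_1ss2TA: gATTTTGGtgtccatgtcatc
ptc-MIR7827-p5_2ss5AT18TC: tGCTTGGAccaagttttctgg
ptc-MIR7827-p3: aTTTTCCAgaaaacttggtcc
ptc-MIR7813-p3_1ss1CT: tTTTGGTAatgcaagtgttgc
ptc-MIR7813-p5_2ss15CT17GA: tTGCATTAccaaaataacttc
The unbroken complementary run was 18 bases for the miR6459 pair, which are named for different loci, 17 for miR7828, 16 for miR7827 and 14 for miR7813. A run of at least 12 bases was found in 4 of the 22 late-numbered hairpins with both arms listed (18.2%), against 5 of 67 other hairpins (7.46%). The median run was 8 and 7. These 4 are miR7828, miR7827, miR7813 and miR6479, with a run of 12. The miR6459 pair is not among them, since the arms of miR6459a have a run of 9. The miR7813 arms stayed close to the untreated level, at 274, 237, 263 and 256 normalized read counts for the 3′ arm, and every interval against the untreated library holds 1 under the authors' scaling. With equal table totals the log2 ratios of the 3′ arm were -0.67, -0.62 and -0.50. ptc-miR6459b was scarce, with 6, 0, 15 and 8 reads.

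Scarce members also matched sequences listed as PC, read here as candidates predicted by the authors. ptc-MIR6469-p3 (gGGACATGaatgtggcagaa), with 5 reads at 0 mM and 0 at every dose, is complementary over 16 bases to PC-5p-44713_134 (cTTTTCTGccacattcatgcc). That candidate had 0, 8, 84 and 59 reads, so it was 17.2-fold higher at 4 mM with 3 counts put in place of the 0. ptc-MIR7836-p3 shares a run of 15 bases with PC-3p-156310_21 (aAAAAAGCtaccacacctcccacc), which had 0, 0, 27 and 6 reads, and both were highest at 4 mM. Both miR6432 sequences, ptc-MIR6432-p5 (aAAAAGATgggtttagggttaggt) and ptc-MIR6432-p5_1ss1GA, were listed at 4 mM only, with 9.5 and 8.5 reads. They hold the letters TTTAGGG, the repeat unit of plant telomeres, which searched on both strands occurred in 2 of the 75 late-numbered sequences (2.67%) and in 9 of the 454 others (1.98%).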

How the data were processed

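Small RNA from leaves was sequenced as 1 library for each of 4 doses. The submitters' processing notes name bcl2fastq 1.8.4, a converter of base calls. The tool for mapping, counting and annotation, like the genome build, is not given in the sources used here. Raw values deposited by the authors hold fractions and are treated as estimated counts. Normalized values are a linear signal deposited by the authors and equal the raw values times 1.356, 0.986, 0.833 and 0.891 at 0, 2, 4 and 8 mM. Rows with the same sequence were summed with Python 3.11.15 and pandas 2.3.3. A family is the number in the name, and ptc-MIR7836-p3 was counted under miR7836. Log2 ratios used a pseudocount of 1. Fold intervals are exact 95% conditional binomial intervals on counts rounded to whole reads (scipy 1.17.1), and shares have Wilson intervals. A listed 0 was replaced by 3 counts to form a ratio. The ratio calculation was tested on simulated data. Members, lists and tests were chosen with earlier results of these data known. Any member family could be named. Sequences named were the most abundant of each family, the 8 most abundant members, the 5 highest and 5 lowest ratios at each dose, those listed at 0 in 1 to 3 libraries, and pairs of arms. Sequences related by their letters (candidates and miR3630) and the motif TTTAGGG were picked after the table was seen. Depth in the table was 2640653, 4998878, 6369127 and 5310499 reads. Scaling, pseudocount, filter, row summing and the name prefix were varied.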

Additional observations from a re-analysis of the deposited data

How the results depend on the processing

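With equal table totals, and the same 37 sequences, the sum of the late-numbered sequences had log2 ratios of -0.35, -0.52 and -0.41 at 2, 4 and 8 mM and the median was -0.57, -0.41 and -0.43, while 8 were lower at 2 mM, 2 higher and 7 lower at 4 mM and 2 higher at 8 mM. By construction this setting lowers every ratio. Directions turned for 4 of 24 family totals at 2 mM, 4 at 4 mM and 6 at 8 mM, and for 4, 9 and 7 of the 37 sequences. No ratio past 2-fold turned. A single row per sequence left 1 lower at 4 mM, with 35 sequences past the filter. Of the 2 lower at 4 mM with summed rows, ptc-miR6457b is in 1 row and cannot change with this setting. The other, ptc-MIR6462f-p5, is in 2 rows with a summed mean of 10.9, close to the filter. A pseudocount of 5 left 1 lower at 4 mM and 2 higher at 8 mM, against 87 and 46 of all 350 sequences. The counts of calls moved most without the filter, when all 75 sequences entered. They were 14 higher and 14 lower at 2 mM, 18 and 9 at 4 mM and 21 and 11 at 8 mM, with medians of 0, 0 and 0. No share over all 529 unfiltered sequences was computed for this setting, so these counts have no background. Here 5 reads against 0 pass 2-fold through the pseudocount, as for ptc-MIR7839-p5 at 2 mM (log2 ratio of 2.57). Size factors from the median of ratios changed no count and no ratio beyond counting error. All names have the ptc prefix, so that restriction changed nothing. No paired analysis was possible because each dose has 1 library and no replicate numbers. Depth limits scarce members most: 3 reads stand for up to 4.07 normalized read counts.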
